A study of Mus musculus with 6 samples.

Results

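This account covers 10 genes of the dense-core granule in mouse outer hair cells, which amplify sound in the cochlea by changing their length. They are the granins Chga, Chgb, Scg2, Scg3 and Scg5, the prohormone processing enzymes Cpe, Pcsk1 and Pcsk2, and the priming factors Cadps and Cadps2. They were chosen by symbol for their role in the regulated secretory pathway, with earlier results of these data known. All 10 were among the 23337 symbols of the count files. Cells carrying a GFP-Cre reporter at Insm1 were sorted by fluorescence from the organ of Corti of embryos at E18.5. The 3 Insm1-KO libraries were set against 3 Insm1-Het libraries; the reporter allele was thus shared by both genotypes, and the heterozygous cells, not wild-type cells, served as controls. The labels do not state the second allele of either genotype, the number of animals behind a library or their litters, so a p-value here covers the variation among these libraries alone and that variation may be technical. In sorted populations, fewer cells of a type and less RNA per cell cannot be told apart.

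Dense-core granules store peptides and amines and release them on a calcium signal. Granins aggregate in the trans-Golgi network and help to form the granule. Convertases cut prohormones at pairs of basic residues and carboxypeptidase E trims the exposed ends, while CADPS proteins bind the granule membrane and prime it for fusion. INSM1 is a zinc-finger transcription factor best known from neuroendocrine cells of the pancreas, adrenal medulla and pituitary, where granules of this kind are abundant. It is expressed for a short time in nascent outer hair cells.

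Chga, Chgb, Scg2 and Pcsk1 are known targets of cyclic AMP signalling, and the members' start sites were therefore examined for the cyclic AMP response element, TGACGTCA, on both strands. RefSeq promoter windows on GRCm38.p6, reaching from 250 bases before to 50 bases after the start, were available for 9 members; Cpe was not matched. The element was found in 3 of the 9 windows, those of Scg2, Chgb and Pcsk1, and in 1.79% of 32851 mouse windows of the same length. Because it was chosen for known targets among the members, their share is a description and not a test. The first base of the element lay 68 bases before the RefSeq start in Scg2, 72 in Chgb and 78 in Pcsk1. The GENCODE M21 annotation starts Chgb at 132781278 (plus strand) and Scg2 at 79440120 (minus strand). By those starts the elements of Chgb and Scg2 lie inside the gene, not before it. Chga held the related letters TGACGTAA, a variant searched after its sequence was seen, 44 bases before the start; 0.499% of windows hold it. The stretches below are on the strand of each gene, with the element in capitals. They are shown because the same or, in Chga, related letters stand near the start of genes whose transcripts stood at very different levels.
Scg2, chr1:79440076-79440105, minus strand: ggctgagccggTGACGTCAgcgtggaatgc
Chgb, chr2:132781559-132781588, plus strand: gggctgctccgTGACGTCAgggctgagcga
Pcsk1, chr13:75089768-75089797, plus strand: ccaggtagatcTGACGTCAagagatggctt
Chga, chr12:102554886-102554915, plus strand: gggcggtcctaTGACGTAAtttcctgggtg

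The libraries held 9259736, 7705177 and 9748629 counts in Insm1-KO and 11738214, 10721902 and 12427039 in Insm1-Het. Together the 10 genes took 0.122% to 0.1704% of the counts in KO and 0.1427% to 0.1561% in Het libraries. Levels are given as CPM, a gene's counts scaled to a common library total after TMM normalisation, and a gene was tested where enough libraries reached about 10 counts. The transcript of Insm1 itself was at 78.7, 60.3 and 18.7 CPM in KO and 109.3, 116.2 and 69.2 CPM in Het libraries, so transcript was still counted in the KO cells (log2 fold change -0.90, adjusted p = 0.938 by edgeR, Benjamini-Hochberg; -0.49 without KO replicate 3). Insm1 has 1 exon, and the labels do not give which part of it the allele lacks. Counts over the whole gene thus do not check the knockout fully. All 10 hair cell markers looked for were tested, with a sum of 9533 to 11110 CPM in KO and 9553 to 9933 CPM in Het libraries. Of these markers Atoh1 was higher in every KO library, at 560.2 to 871.4 CPM in KO and 411.2 to 449.6 CPM in Het, and Gfi1 lower, at 113.7 to 172.5 CPM in KO and 179.1 to 189.7 CPM in Het. That is 1 of 10 in each direction without overlap, against 5.08% higher and 6.1% lower of all tested genes, and neither passed over all genes by edgeR. KO replicate 3 stood apart from the rest, with Pearson correlations of log2 CPM from 0.7462 to 0.78 with the other 5 libraries, against 0.787 to 0.841 among those 5. The Y-linked Ddx3y was at 2.56 to 4.96 CPM in KO and 17.1 to 40.8 CPM in Het libraries. The X-linked Xist was at 469.1, 758.2 and 622.1 CPM in KO and 228.3, 458.5 and 534.6 CPM in Het libraries, which overlapped. The make-up by sex may thus differ between the genotypes, and its part in the results was not tested.

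Per exonic length, Cpe was the most abundant member in both genotypes, followed by Scg3 and Chgb. Over the 6 libraries Cpe averaged 244.6 RPKM (CPM per kilobase of exon, lowest 196.6 and highest 326.8). Scg3 averaged 90.7 RPKM and Chgb 58.7 RPKM. Scg5, Chga and Cadps2 stood at 33.6, 29.97 and 23.5 RPKM, Pcsk1 at 7.21 RPKM and Cadps at 1.002 RPKM. The ranges over the libraries did not overlap between Cpe and Scg3, between Cadps2 and Pcsk1, or between Pcsk1 and Cadps, while each other pair of neighbours from Scg3 to Cadps2 overlapped and was not separated by its spread. With the longest coding transcript as the length, Cadps2 moved ahead of Chga and Chga ahead of Scg5, and the other members kept their places. That length raised Cadps2 to 45.2 RPKM and Cadps to 2.76 RPKM. Pcsk2 and Scg2 were near the limit of detection.

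**Figure D1:**
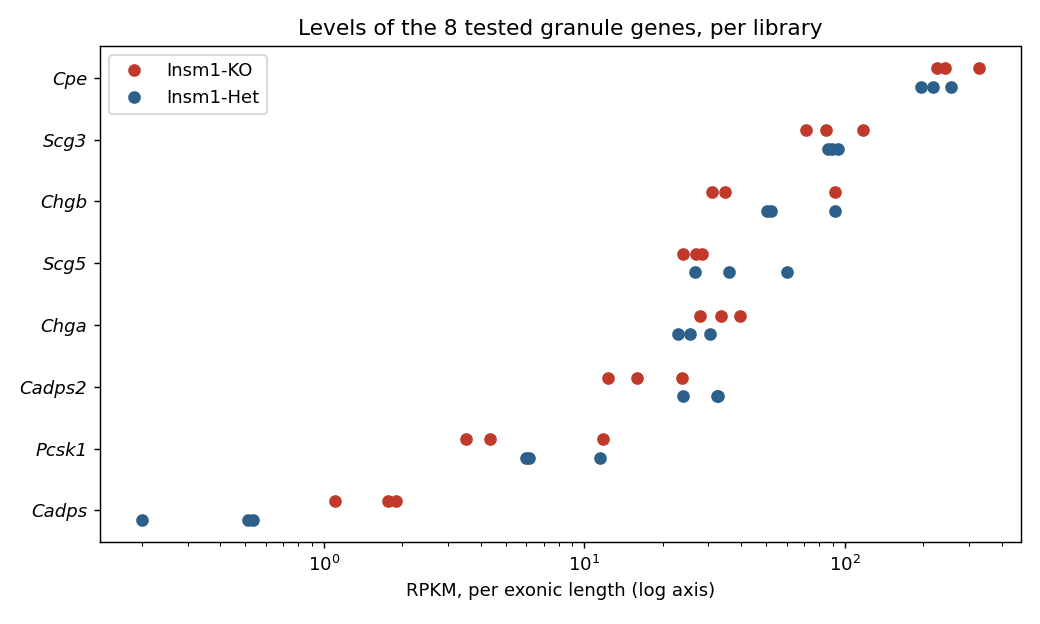
Level of each tested member in RPKM on a log axis, 1 point per library, Insm1-KO drawn above Insm1-Het. Cpe lies from 196.6 to 326.8 RPKM and Cadps from 0.20 to 1.90 RPKM; Pcsk2 and Scg2, which did not pass the filter, are not drawn.

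Of the 8 members that passed the filter on low counts, 0 passed the threshold of 0.05 over all genes (quasi-likelihood test of edgeR, Benjamini-Hochberg adjustment), where 0% of the 11714 tested genes did. At an unadjusted p under 0.05 stood 1 member higher in KO, Cadps, and 1 lower, Cadps2, by the same edgeR fit; over all tested genes 3.19% were higher and 2.15% lower at that level. The same 2 genes were the tested members whose libraries did not overlap between genotypes, 1 above and 1 below, against 5.08% and 6.1% of all tested genes. DESeq2 and limma-voom also passed 0 members. The median log2 fold change of the 8 members was -0.12, with 4 above 0 and 4 below, and that of all tested genes was 0.015.

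**Figure D2:**
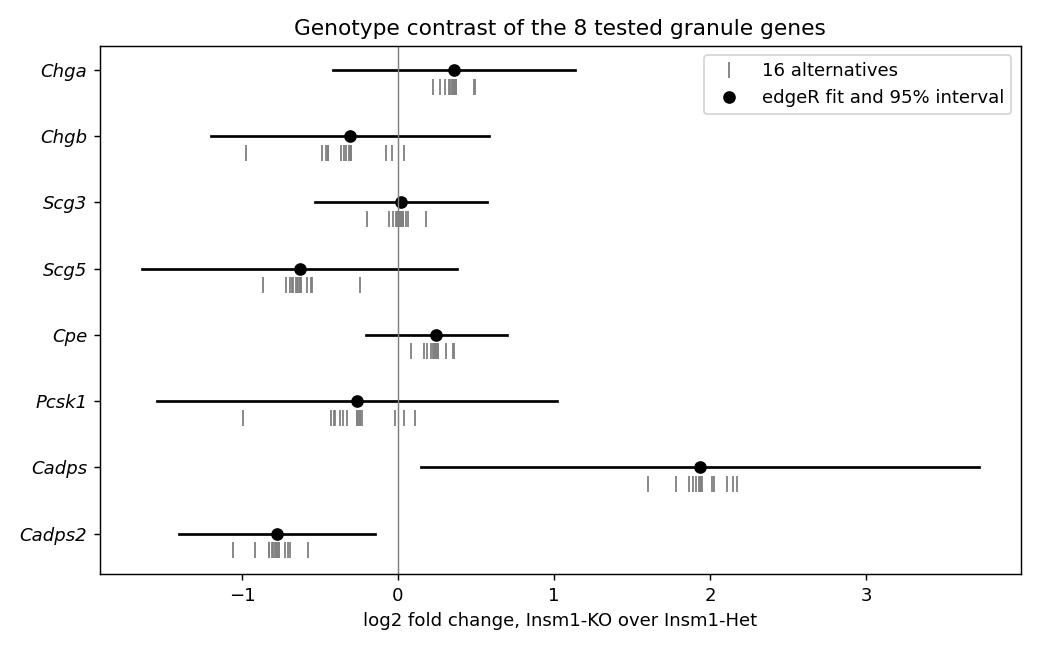
Log2 fold change, Insm1-KO over Insm1-Het, of each tested member by edgeR with its 95% interval (black), and the values under 16 other settings (grey ticks). The interval of Cadps, from 0.15 to 3.72, lies above 0 and that of Cadps2, from -1.40 to -0.15, below it; the other 6 include 0.

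Among the granins, Chga and Chgb code for the soluble core proteins chromogranin A and chromogranin B. Chga, on chromosome 12 from 102554969 to 102565028 (GRCm38, plus strand), was at 109.5, 92.5 and 76.5 CPM in KO and 70.0, 63.4 and 83.6 CPM in Het libraries. KO replicates 1 and 2 lay above every Het library and KO replicate 3 lay among them. Chga had a log2 fold change of 0.36 (SE 0.36, adjusted p = 0.979 by edgeR with Benjamini-Hochberg adjustment), and its 95% interval ran from -0.42 to 1.13. The fold change was 0.22 on that scale without KO replicate 1.

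Chgb, on chromosome 2 from 132781278 to 132795079 (plus strand), was at 84.6, 251.6 and 94.8 CPM in KO and 143.4, 137.4 and 252.5 CPM in Het libraries. KO replicate 2 and Het replicate 3 stood well above the rest, and the other 4 lay between 84.6 and 143.4 CPM. Its log2 fold change of -0.31 (SE 0.42) thus hung on single libraries, being -0.98 without KO replicate 2 and 0.04 without Het replicate 3.

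Scg3 codes for secretogranin III, which ties chromogranin A to cholesterol-rich granule membrane. It was at 232.3, 194.6 and 322.5 CPM in KO and 258.8, 245.7 and 235.8 CPM in Het libraries. The Het libraries differed by a factor of 1.10 between highest and lowest and the KO libraries by 1.66, on both sides of the Het values. Scg3 had a log2 fold change of 0.02, with -0.53 and 0.57 as the bounds of the 95% interval, that is 0.69-fold and 1.49-fold. Its sign turned with the scaling, being -0.034 with upper quartile factors and -0.059 with library sizes alone, and it was -0.20 without KO replicate 3.

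Scg5 codes for the protein 7B2, the chaperone that the convertase of Pcsk2 needs to mature. It was at 42.1, 44.5 and 37.5 CPM in KO and 56.6, 41.7 and 93.8 CPM in Het libraries. The KO libraries stood close together, the Het libraries spread by a factor of 2.25, and Het replicate 2 lay within the KO range. Scg5 had a log2 fold change of -0.63 (SE 0.47, adjusted p = 0.960 by edgeR with Benjamini-Hochberg adjustment), and -0.24 without Het replicate 3.

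The enzyme partner of 7B2 was counted in very few reads. Pcsk2 (chromosome 2, 143546156 to 143816285, plus strand), the prohormone convertase 2, had 0, 0 and 0 counts in KO and 11, 1 and 2 counts in Het libraries. Het replicate 1 held 11 of the 14 reads. Against a floor of 3 counts over KO libraries, the pooled KO level was at least 3.57-fold below the pooled Het level of 0.401 CPM. That bound rests on Het replicate 1. It covers counting error of the KO counts only, since the Het level was taken as observed. Exons of Pcsk2 overlap those of Pcsk2os1 and Pcsk2os2 by 359 bases, and without a stated strand setting reads from that stretch cannot be told apart. Scg2, which codes for secretogranin II, had 0 counts in each KO library and 4, 0 and 0 counts in the Het libraries. Neither gene passed the filter, so neither was tested, and the counts of Scg2 were too few to show a difference.

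Cpe, the carboxypeptidase that removes basic residues after cleavage, was at 633.0, 852.6 and 591.6 CPM in KO and 568.6, 669.9 and 512.9 CPM in Het libraries. The genotypes overlapped, with KO replicate 2 highest. Its log2 fold change was 0.25, and the 95% interval ran from -0.21 to 0.70, or 0.87-fold to 1.62-fold. Leaving out KO replicate 2 gave a log2 fold change of 0.08. By the likeness of log2 CPM over the 6 libraries, each gene centred on its own mean, the nearest genes to Cpe were Eif3m, Mtch1 and Myl12b, at root mean square differences of 0.05, 0.06 and 0.07.

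Pcsk1, the prohormone convertase 1/3 (chromosome 13, 75089826 to 75134861, plus strand), was at 19.6, 24.4 and 66.2 CPM in KO and 34.5, 64.3 and 33.4 CPM in Het libraries. KO replicate 3 and Het replicate 2 stood well above the rest, and the other 4 lay between 19.6 and 34.5 CPM. Pcsk1 had a log2 fold change of -0.26 (SE 0.60), which was -0.99 without KO replicate 3 and 0.11 without Het replicate 2.

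**Figure D3:**
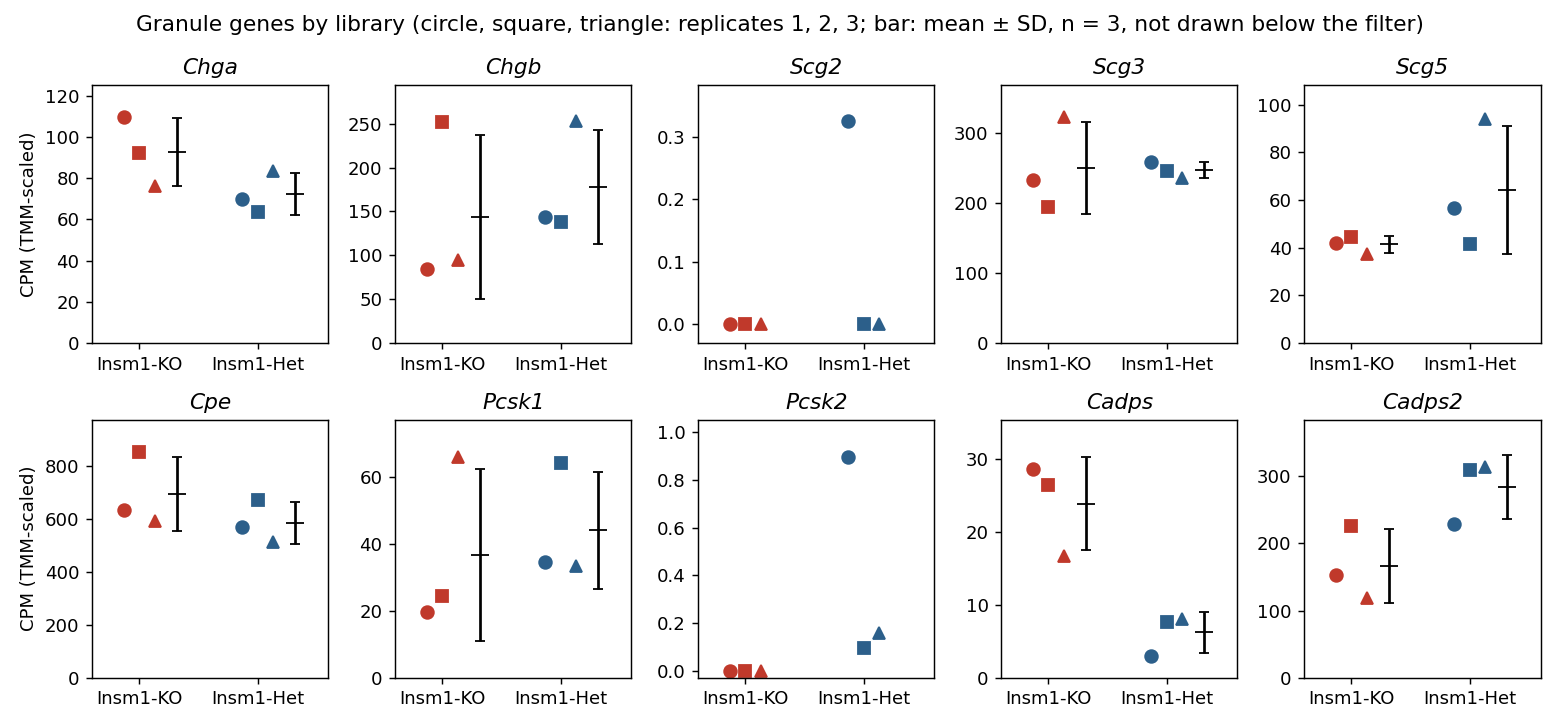
CPM of the 10 members in each library, Insm1-KO left and Insm1-Het right, with the mean ± SD of 3 libraries beside the points of the 8 tested genes. Cadps and Cadps2 are the tested members whose points do not overlap between genotypes, and Chgb and Pcsk1 each have 1 high library on either side.

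Among the 8 tested members, the priming factors had the largest log2 fold changes by edgeR with all 6 libraries, in opposite directions, and neither passed over all genes. Both genes were read in all 6 libraries, but from very unequal levels, with Cadps2 the main form in both genotypes. Cadps, which codes for the priming factor CAPS1 of neurons and neuroendocrine cells (chromosome 14, 12372563 to 12823079, minus strand), had 268, 203 and 150 counts in KO and 37, 82 and 102 counts in Het libraries. In CPM these were 28.6, 26.5 and 16.7 in KO and 3.01, 7.68 and 8.06 in Het libraries, and the lowest KO library stood above the highest Het library. Its mean was 23.9 ± 6.36 CPM in KO and 6.25 ± 2.81 CPM in Het libraries (SD, n = 3 each). The log2 fold change was 1.93 (SE 0.83), or 3.82-fold with a 95% interval from 1.11-fold to 13.2-fold, and did not pass over all genes (unadjusted p = 0.0359, adjusted p = 0.920 by edgeR with Benjamini-Hochberg adjustment).

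Cadps2, which codes for its paralogue CAPS2 (chromosome 6, 23262773 to 23839421, minus strand), had 1433, 1734 and 1062 counts in KO and 2803, 3309 and 3963 counts in Het libraries. The CPM values were 153.0, 226.2 and 118.2 in KO and 228.3, 309.9 and 313.2 in Het libraries. The highest KO library, replicate 2, lay just below the lowest Het library, replicate 1. Means were 165.8 ± 55.1 CPM in KO and 283.8 ± 48.1 CPM in Het libraries (SD, n = 3 each). The log2 fold change was -0.78 (SE 0.29), or 0.58-fold with a 95% interval from 0.38-fold to 0.90-fold, and did not pass over all genes (unadjusted p = 0.0190, adjusted p = 0.920 by edgeR with Benjamini-Hochberg adjustment). Without KO replicate 3, the library that stood apart, the log2 fold change was -0.57 for Cadps2 and 2.15 for Cadps.

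A quantity chosen after these values were seen is the share of Cadps in the summed RPKM of both genes. It was 10.6%, 6.92% and 8.24% in KO and 0.832%, 1.55% and 1.61% in Het libraries, or 8.59% ± 1.87 in KO and 1.33% ± 0.43 in Het (SD, n = 3 each). The sum itself was 17.9, 25.4 and 13.5 RPKM in KO and 24.1, 32.9 and 33.3 RPKM in Het libraries, where KO replicate 2 lay above Het replicate 1. The share depends on the lengths used, and with the longest coding transcripts it was 11.9% ± 2.49 in KO and 1.89% ± 0.61 in Het libraries (SD, n = 3 each).

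**Figure D4:**
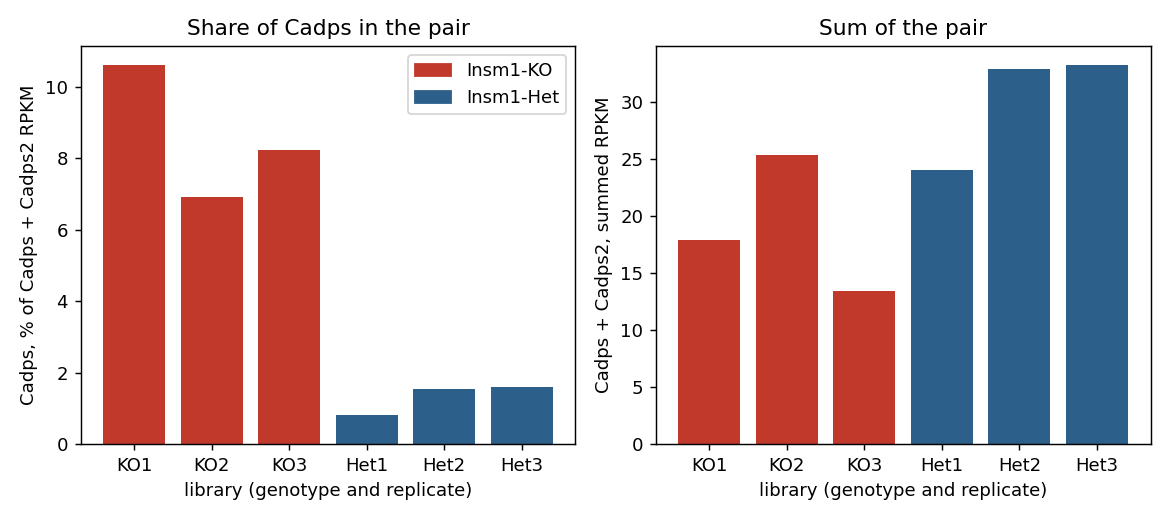
Share of Cadps in the summed RPKM of Cadps and Cadps2 (left, in percent) and the sum (right, in RPKM), 1 bar per library, Insm1-KO before Insm1-Het. The share is 6.92% to 10.6% in KO and 0.832% to 1.61% in Het libraries, and the sums of the genotypes overlap.

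INSM1 being the protein targeted in these mice, the windows were also searched on both strands for CAGGGG, the core letters of the published INSM1 motif. In the pair shown here the core occurred once in the 250 bases before the start of Cadps, 203 bases ahead of it, and these letters were not found in the window of Cadps2. Pcsk2 was the other member of the 9 with a match, 127 bases before its start, and 24.1% of all 32851 windows hold the core, so a match is a description and not a binding site. The sequences are given 5′ to 3′ on the minus strand (RefSeq, GRCm38.p6), with the core in capitals; 58% of the bases were G or C in the first and 78% in the second.
Cadps, chr14:12823080-12823329: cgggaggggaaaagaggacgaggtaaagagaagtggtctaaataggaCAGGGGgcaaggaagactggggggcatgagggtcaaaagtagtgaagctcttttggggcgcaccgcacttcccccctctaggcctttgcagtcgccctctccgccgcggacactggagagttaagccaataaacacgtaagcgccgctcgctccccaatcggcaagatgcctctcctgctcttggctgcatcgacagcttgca
Cadps2, chr6:23839422-23839671: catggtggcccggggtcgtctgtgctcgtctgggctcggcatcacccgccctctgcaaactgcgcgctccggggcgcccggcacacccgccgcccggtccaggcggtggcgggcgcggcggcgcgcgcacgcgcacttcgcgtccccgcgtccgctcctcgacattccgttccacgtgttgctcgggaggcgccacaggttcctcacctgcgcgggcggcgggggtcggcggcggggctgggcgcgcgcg

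The genes whose pattern over the 6 libraries was nearest to that of Cadps2 were Tmem167, D14Abb1e and Fmr1, at root mean square differences of 0.11, 0.12 and 0.14 on the centred log2 CPM scale. Their own log2 fold changes were -0.69, -0.74 and -0.73, and none passed (adjusted p = 0.920, 0.920 and 0.938 by edgeR with Benjamini-Hochberg adjustment). Fold changes near that of Cadps2 follow from picking these genes by their likeness to it over the same 6 libraries.

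The members that hold the cyclic AMP response element stood at very different levels. Its 3 carriers averaged 58.7 RPKM for Chgb, 7.21 RPKM for Pcsk1 and 0.022 RPKM for Scg2 over the 6 libraries. Scg2 also held TTCAGCACC, the left part of the RE1 element bound by the neuronal repressor REST. These letters lay on the opposite strand, 7 bases before the RefSeq start of Scg2. They were held by 0.371% of windows and by no other member of the 9.

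Most genes for peptide precursors and other cargo were at or near 0, while Grp, Bdnf and Nppa were well covered. Of 28 genes for granule cargo, 14 had 0 counts in all 6 libraries, among them those for galanin (Gal), urocortin (Ucn) and corticotropin-releasing hormone (Crh). A further 8 fell below the filter and 6 were tested. Of these, 0 passed higher and 0 lower over all genes by edgeR, DESeq2 or limma-voom, and 0 had an unadjusted p under 0.05 by edgeR. The 6 had 3 values above 0 and 3 below, with a median log2 fold change of -0.04. Grp, the precursor of gastrin-releasing peptide, was at 231.4, 226.4 and 468.1 CPM in KO and 313.9, 257.6 and 260.5 CPM in Het libraries. Its mean of 198.4 RPKM over the 6 libraries was exceeded among the 10 members by Cpe alone, and the log2 fold change was 0.15 (95% interval -0.48 to 0.79), and -0.27 without KO replicate 3.

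Bdnf, a neurotrophin sorted into regulated granules, was at 232.8, 208.2 and 145.2 CPM in KO and 248.3, 186.5 and 211.1 CPM in Het libraries, which overlapped. Nppa, the atrial natriuretic peptide precursor, was at 18.9, 21.5 and 10.8 CPM in KO and 18.1, 53.9 and 24.3 CPM in Het libraries. Of the 865 exonic bases of Nppa, 532 overlap exons of Gm13054, and 896 exonic bases of Bdnf overlap those of Gm45346. Without a stated strand setting, reads from these stretches cannot be told apart. Npy, the neuropeptide Y precursor, was at 4.59, 5.48 and 32.3 CPM in KO and 2.85, 3.18 and 4.03 CPM in Het libraries. All KO libraries of Npy lay above the Het libraries, making 1 of 6 tested cargo genes against 5.08% of all tested genes. In the other direction it was 0 of 6 against 6.1%. For Npy, KO replicate 3, the library that stood apart, held most of the reads (log2 fold change 2.07, SE 1.15, and 0.59 without it). Calca, the precursor of calcitonin and CGRP, did not exceed 8.31 CPM in any library.

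A list of 30 further genes of granule formation, processing and transport gave 21 tested genes, of which 0 passed higher and 0 lower over all genes by edgeR's quasi-likelihood test, with 11 above 0 and 10 below and a median log2 fold change of 0.02. DESeq2 and limma-voom passed 0 of them as well. The most abundant per length were Gnas, the stimulatory G protein subunit, at 89.5 RPKM, the convertase Pcsk6 at 27.4 RPKM, Ccdc186 (listed as A630007B06Rik) and Hid1 (listed as C630004H02Rik), partners in granule maturation, at 25.2 and 19.6 RPKM, and Cyb561, the granule cytochrome, at 17.1 RPKM. Of these, the libraries of Cyb561 did not overlap, at 61.4, 64.3 and 34.2 CPM in KO and 79.3, 67.3 and 69.0 CPM in Het libraries. Exons of Gnas overlap those of Gm20721 and Nespas by 2457 bases. Those of Cyb561 overlap Gm9910 by 377 bases and those of Pcsk6 overlap Gm45213 by 156 bases. Reads from these stretches cannot be told apart without a stated strand setting. With the longest coding transcript as the length, Gnas stood at 253.6 RPKM.

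The genes described next were chosen after their values were seen. Slc18a2, the vesicular monoamine transporter 2, was the 1 gene of the list with an unadjusted p under 0.05, where 3.19% of all tested genes were higher at that level. It was at 31.2, 27.0 and 27.4 CPM in KO and 4.72, 2.81 and 13.8 CPM in Het libraries. Its log2 fold change was 2.004 (SE 0.82, unadjusted p = 0.0296, adjusted p = 0.920 by edgeR with Benjamini-Hochberg adjustment) and 2.04 without KO replicate 3, and its exons overlap those of Gm29261 by 111 bases. Rab27b, a small GTPase of granule docking, was the other gene with all KO libraries above the Het libraries, making 2 of 21 against 5.08% of all tested genes. It was at 19.4, 14.999 and 15.6 CPM in KO and 5.70, 1.97 and 5.85 CPM in Het libraries. Below the Het libraries, besides Cyb561, lay Slc18a1, the vesicular monoamine transporter 1, and Eipr1, listed as Tssc1, a partner of the EARP complex in granule sorting, making 3 of 21 against 6.1% of all tested genes. Slc18a1 was at 0.534, 0.130 and 0.111 CPM in KO and 3.42, 1.40 and 1.42 CPM in Het libraries, and Eipr1 at 13.03, 8.22 and 6.90 CPM in KO and 15.96, 28.1 and 22.6 CPM in Het libraries. Vgf, Dbh, Scgn and Sytl5 had 0 counts in all 6 libraries.

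**Figure D5:**
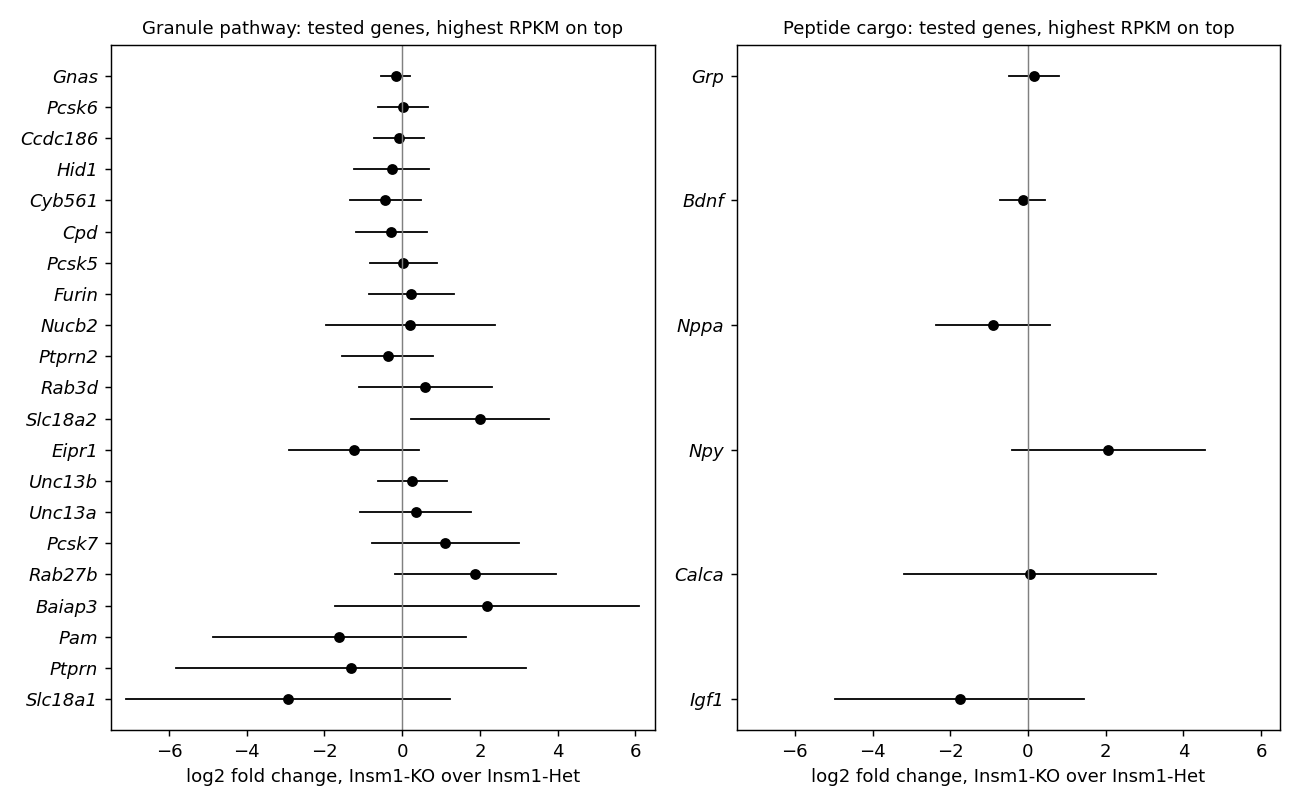
Log2 fold change, Insm1-KO over Insm1-Het, with 95% intervals by edgeR for the 21 tested genes of the wider granule list (left) and the 6 tested cargo genes (right), ordered by RPKM. The interval of Slc18a2 lies above 0 and each of the other 26 includes 0.

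Neurons also make granins, and their markers were read in the same libraries. Of 12 spiral ganglion neuron markers, 7 were tested, with 0 passing in either direction, and all 12 summed to 935.2 to 1578 CPM in KO and 977.4 to 1162 CPM in Het libraries. Tubb3, Prph, Nefh, Neurod1 and Ntrk3 fell below the filter. Of these Tubb3, Prph and Neurod1 did not exceed 3.39, 5.71 and 1.98 CPM in any library. Nefh and Ntrk3 reached 16.1 and 10.1 CPM in KO replicate 3, the library that stood apart. In every other library they did not exceed 2.85 and 0.869 CPM. The sum was mainly that of Nefm and Nefl, with Snap25 at 71.5 to 134.2 CPM in KO and 94.7 to 144.2 CPM in Het libraries and Isl1 at 66.0 to 144.3 CPM in KO and 80.1 to 127.4 CPM in Het libraries. Exons of Nefl and Nefm overlap by 1108 bases on opposite strands. Without a stated strand setting, reads from that stretch cannot be told apart. The part of neurons in the values of the members was not tested. The 7 supporting cell markers, all tested, summed to 1265 to 1599 CPM in KO and 1070 to 1262 CPM in Het libraries, which did not overlap, with 2 members higher and 1 lower without overlap, against 5.08% and 6.1% of all tested genes. Sums for the Schwann cell and glia list ran from 61.7 to 113.3 CPM in KO and from 53.3 to 129.5 CPM in Het libraries. Those for mesenchyme ran from 183.7 to 334.9 CPM in KO and from 227.5 to 369.6 CPM in Het libraries. The mesenchyme sum was mainly Pdgfra, at 175.3 to 334.3 CPM in KO and 225.3 to 349.1 CPM in Het libraries. Col1a1 did not exceed 17.2 CPM in any library, and Pou3f4, Col1a2, Col3a1 and Tbx18 fell below the filter. Immune markers summed to 37.6 to 136.0 CPM in KO and 86.3 to 120.6 CPM in Het libraries. That sum was nearly all Laptm5, at 37.5 to 136.0 CPM in KO and 85.0 to 120.6 CPM in Het libraries. Csf1r had 0 counts in all 6 libraries, and Ptprc and C1qa did not exceed 1.14 and 0.163 CPM in any library. Endothelial and melanocyte or stria markers summed to at most 31.6 CPM in any library. The ranges of these 5 lists overlapped between genotypes and 0 of their members passed. The part of supporting cells in the values of Cadps and Cadps2 was not tested.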

How the data were processed

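Per the labels' protocols, RNA depleted of ribosomal RNA was copied with random hexamers, amplified and sequenced as paired reads. The authors deposited raw counts per gene symbol, 1 file per library; Trimmomatic, STAR, HTSeq and GRCm38 (mm10) are named in the submitters' processing notes. For their versions, the annotation and the strand setting the entry is: not given in the sources used here.

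From these counts, genes were filtered with filterByExpr (minimum count 10, minimum total 15; 11714 of 23337 genes, the rest holding 0.274% of counts), scaled by TMM and compared with edgeR 4.0.16 (quasi-likelihood F test, only genotype in the model), p-values being adjusted by Benjamini-Hochberg over all tested genes and a threshold of 0.05. The SE is the log2 fold change divided by the square root of F. RPKM used the union of GENCODE M21 exons on GRCm38. Likeness used log2 CPM with a prior count of 2. The fit was tested on simulated data. DESeq2 1.42.0, limma 3.58.1 (voom), 3 other scalings, 2 other filters, removal of structural RNA, a newer form of the fit, the replicate block and leaving out each library were alternatives. The rule named all members, called genes of 2 further lists with the 5 most abundant of each, and the 3 nearest genes of 2 members. Members and lists were chosen with earlier results of these data known.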

Additional observations from a re-analysis of the deposited data

How the results depend on the processing

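In no alternative did a member, a gene of the wider granule list or a cargo gene pass over all genes. Over all genes the count was 0 in the main comparison, 26 with DESeq2, 67 with no filter, 1 with edgeR's newer form, 1 with the replicate block, and 0 to 0 when 1 library was left out; the cause was not tested. The signs of Chga, Scg5, Cpe, Cadps and Cadps2 held in all 16 alternatives, with log2 fold changes from 1.599 to 2.17 for Cadps and from -1.05 to -0.57 for Cadps2. Their unadjusted p stayed under 0.05 in 10 and 14 of these. The adjusted p of Cadps ran from 0.442 to 1 and that of Cadps2 from 0.397 to 1 (edgeR, DESeq2 or limma-voom with Benjamini-Hochberg adjustment). The signs of the other 3 turned. Chgb was at 0.0384 without Het replicate 3 (-0.9762 without KO replicate 2, the lowest). Scg3 was at -0.0337 with upper quartile factors, -0.0585 with library sizes alone, -0.0023 with limma-voom, -0.014 with the replicate block, -0.2001 without KO replicate 3 and -0.0031 without Het replicate 3 (0.1811 without KO replicate 2, the highest). Pcsk1 was at 0.0379 without KO replicate 1 and 0.112 without Het replicate 2 (-0.993 without KO replicate 3). The log2 fold change of Insm1 kept its sign in all 16 alternatives. Same-numbered libraries did not deviate together over all tested genes (correlations 0.01, 0.007 and 0.014). Low correlations cannot show that a number shares no litter or sort, and the labels do not say what it shares. The block is therefore given as an alternative alone. Depth limits Scg2 and Pcsk2, with 0 counts in KO.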
